A study of Mus musculus with 4 samples.

Results

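The genes described here are 10 histone lysine demethylases of the mouse, Kdm1a, Kdm2a, Kdm2b, Kdm3a, Kdm3b, Kdm4a, Kdm4b, Kdm4c, Kdm5b and Kdm6b. They were chosen by name, with earlier results of these data known. They are the rows of the count table whose NCBI gene identifiers carry these symbols. All 10 were found among the 27179 genes of the table. RNA-seq was performed on wild-type MC38 cells, a mouse colon carcinoma line, under 4 conditions with 1 library each. Control cells without IFN-γ were kept under normoxic (20% oxygen) or hypoxic (1.5% oxygen) conditions, and cells given IFN-γ (5 ng/mL for 24 h, as the methods state for most experiments) were kept under the same oxygen levels. How long the sequenced cells were kept in hypoxia is not given in the sources used here. No condition had a replicate, so spread between separate cultures of a condition was not measured.

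Histone lysine demethylases remove methyl groups from histone tails and so reverse the work of the histone methyltransferases. The Jumonji enzymes, which are 9 of the 10 genes here, bind iron and use molecular oxygen and 2-oxoglutarate in each round of catalysis. Kdm1a, also called LSD1, is the other one, a flavin-dependent amine oxidase that also passes electrons to oxygen but needs neither iron nor 2-oxoglutarate, and it is given as a comparison. RNA-seq reads the abundance of the mRNAs, not the activity of the enzymes, and in bulk samples fewer cells that make a transcript and less transcript per cell cannot be told apart.

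Sequencing depth was even, from 34302971 to 34537939 counts per library, and a floor of 3 counts corresponded to 0.0869 to 0.0875 CPM, the count relative to the size of the library. Levels of genes are given as CPM after TMM scaling, edgeR's adjustment between libraries. The 4 check genes for hypoxia, Car9, Egln3, Ndrg1 and Ankrd37, were raised in hypoxia, and the check genes Irf1, Gbp2 and Psmb9 were raised by IFN-γ (Benjamini-Hochberg adjusted p under 0.05 in edgeR's quasi-likelihood test). Of 8 colon epithelium markers, Epcam, Cdh1, Krt18 and Cdx2 were at or under the floor in every library, and the summed level of all 8 was 2.48 to 3.26 CPM, so these defining markers of the labelled tissue were near 0 in these cells. Of 5 leukocyte markers, 4 were at or under the floor (summed level of the list, 0.0876 to 0.379 CPM). The 4 fibroblast markers summed to 36.6 to 44.1 CPM and the 2 endothelial markers to 0.758 to 1.44 CPM. Most of the fibroblast sum was Pdgfra, with 1077 to 1341 counts per library. The other fibroblast markers, Col1a1, Col1a2 and Dcn, had 29 to 105 counts. None of the markers of these 4 lists that could be tested passed the test for either stimulus.

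Under hypoxic conditions, 7 of the 10 demethylase mRNAs rose and none fell (edgeR's quasi-likelihood test, Benjamini-Hochberg adjusted p under 0.05), where 8.21% of the 13580 genes tested rose and 6.83% fell. The risers were 6 of the 9 oxygen-dependent genes, namely Kdm4b, Kdm5b, Kdm3a, Kdm6b, Kdm2a and Kdm4c, and the flavin enzyme Kdm1a. Their log2 changes ran from 0.17 to 1.17. The median log2 change was 0.36 over the 10 genes and 0.00 over all genes tested. Both hypoxic libraries lay above both normoxic libraries for 9 of the 10 genes, all but Kdm3b, where this held for 24.1% of all genes tested. No gene of the 10 had both hypoxic libraries below both normoxic ones, which held for 24.4% of all genes. Because the 10 genes were chosen with earlier results known, these shares describe them and do not test the family. Of the 9 other histone demethylases tested, 3 rose and 2 fell.

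The test compared libraries in an additive model of oxygen and IFN-γ, in which the other stimulus stands in for a replicate. With 1 residual degree of freedom per gene, edgeR estimated an infinite prior in the main fit, so each gene took the spread expected at its abundance and none of its own. With different scaling or filtering the estimated prior was between 16.5 and 23.2 degrees of freedom, and the adjusted p-values of the 7 risers were larger in those fits. The very small adjusted p-values of the main fit rest on 4 libraries, so for each gene called the number of alternative fits, of 6, that also called it is given.

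**Figure D1:**
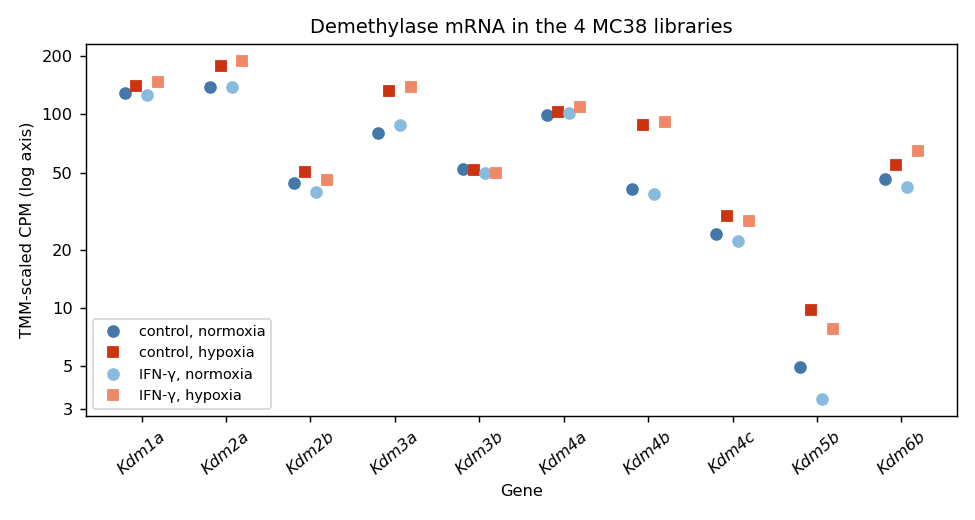
Abundance of the 10 demethylase mRNAs (TMM-scaled CPM, log axis) in each of the 4 libraries, with circles for normoxia, squares for hypoxia and lighter colours for IFN-γ. Each point is 1 library. The squares lie well above the circles for Kdm3a, Kdm4b and Kdm5b and level with them for Kdm3b.

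The KDM4 enzymes remove trimethyl and dimethyl marks from lysines 9 and 36 of histone H3, and the 3 genes of this family differed in their change. Kdm4b (NCBI gene 193796, chr17:56325970-56403774, GRCm38.p6) had 1426 counts in control normoxia, 3056 in control hypoxia, 1327 with IFN-γ in normoxia and 3121 with IFN-γ in hypoxia. The hypoxic libraries were far above the normoxic ones whether or not IFN-γ was present. The log2 change was 1.17 (SE 0.0704, a 2.25-fold rise, edgeR's quasi-likelihood adjusted p = 1.26e-58), and the adjusted p ranged from 8.08e-28 to 0.00182 over the alternative fits, all 6 of which called it.

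Kdm4c (NCBI gene 76804, chr4:74242497-74405864) had 836, 1033, 757 and 963 counts in the same order of libraries. Its hypoxic libraries did not overlap the normoxic ones, but the gap was small, at a log2 change of 0.33 (SE 0.0845, edgeR's adjusted p = 0.00168). It was called in 4 of 6 alternative fits, with adjusted p-values up to 0.195. Kdm4a (NCBI gene 230674, chr4:118136957-118180090) had 3447, 3539, 3501 and 3752 counts, nearly level across the libraries. Its log2 change of 0.07 (SE 0.0623, edgeR's adjusted p = 0.513) did not pass the test in any of the 6 alternative fits.

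The balance within the family therefore differed between oxygen levels. The level of Kdm4b per kilobase of transcript was 0.422 of that of Kdm4a in control normoxia and 0.880 in control hypoxia, and with IFN-γ it was 0.386 in normoxia and 0.848 in hypoxia. Against Kdm4c, the ratio for Kdm4b went from 1.56 to 2.71 in control cells and from 1.61 to 2.97 with IFN-γ.

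The KDM3 enzymes remove monomethyl and dimethyl marks from lysine 9 of histone H3. Kdm3a (NCBI gene 104263, chr6:71588970-71632990) had 2783 counts in control normoxia, 4539 in control hypoxia, 3031 with IFN-γ in normoxia and 4733 with IFN-γ in hypoxia. The groups by oxygen were well separated, with a log2 change of 0.68 (SE 0.0620, edgeR's adjusted p = 2.73e-25). All 6 alternative fits called it, with adjusted p-values between 1.15e-13 and 0.0204.

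Its paralog Kdm3b (NCBI gene 277250) had 1818, 1774, 1702 and 1695 counts, a log2 change of -0.02 (SE 0.0727, edgeR's adjusted p = 0.908). The hypoxic and normoxic libraries of Kdm3b overlapped. The ratio of Kdm3a to Kdm3b per kilobase of transcript was 2.01 in control normoxia and 3.36 in control hypoxia, and with IFN-γ it was 2.34 and 3.66. Exons of Kdm3b overlap a long non-coding gene on the opposite strand, Gm26538, over 3468 bases (24.6% of its exonic sequence). The libraries kept the strand, but the strand setting of the counting is not given in the sources used here, so its counts may hold reads of that gene.

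Kdm5b removes trimethyl and dimethyl marks from lysine 4 of histone H3 and was the least abundant of the 10. Kdm5b (NCBI gene 75605, chr1:134560178-134632878) had 172 counts in control normoxia, 337 in control hypoxia, 116 with IFN-γ in normoxia and 265 with IFN-γ in hypoxia. Both hypoxic libraries exceeded both normoxic ones, and both IFN-γ libraries lay below the control library at the same oxygen level. The log2 change with hypoxia was 1.07 (SE 0.155, a 2.11-fold rise, edgeR's adjusted p = 2.97e-10). Its adjusted p over the alternative fits ran from 1.37e-05 to 0.124, and 5 of 6 called it. Kdm5b was a minor member of its family in these cells, at 0.0162 of the level of Kdm5c per kilobase in control normoxia and 0.0275 in control hypoxia, and at 0.0114 and 0.0220 with IFN-γ.

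Kdm6b, also called JMJD3, removes trimethyl and dimethyl marks from lysine 27 of histone H3. Kdm6b (NCBI gene 216850, chr11:69398508-69420367) had 1608 counts in control normoxia, 1903 in control hypoxia, 1450 with IFN-γ in normoxia and 2226 with IFN-γ in hypoxia. The highest value was that of IFN-γ with hypoxia and the lowest that of IFN-γ with normoxia. The log2 change with hypoxia was 0.43 (SE 0.0725, edgeR's adjusted p = 1.23e-07), called in 5 of 6 alternative fits with adjusted p-values between 3.65e-04 and 0.133. The ratio of Kdm6b to Kdm6a, the other widely expressed demethylase of the family, was 1.26 per kilobase in control normoxia, 1.65 in control hypoxia, 1.23 with IFN-γ in normoxia and 1.88 with IFN-γ in hypoxia. A Kdm6b antisense gene, Kdm6bos, overlaps 4.11% of its exonic bases.

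The KDM2 enzymes bind unmethylated CpG-rich DNA and remove dimethyl marks from lysine 36 of histone H3. Kdm2a (NCBI gene 225876, chr19:4316144-4398721) had 4802, 6114, 4742 and 6473 counts in control normoxia, control hypoxia, IFN-γ normoxia and IFN-γ hypoxia. It rose in hypoxia by a log2 change of 0.40 (SE 0.0580, edgeR's adjusted p = 3.71e-10), and all 6 alternative fits called it, the weakest at an adjusted p of 0.04995. Kdm2b (NCBI gene 30841, chr5:122870664-122989270) had 1531, 1750, 1369 and 1568 counts. The hypoxic libraries of Kdm2b lay just above the normoxic ones, but the log2 change of 0.20 (SE 0.0745) missed the threshold in edgeR's test (adjusted p = 0.0542) and in all 6 alternative fits. Exons of Kdm2b overlap those of Rnf34 on the opposite strand over 627 bases (5.77%).

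The flavin enzyme Kdm1a, which removes monomethyl and dimethyl marks from lysine 4 of histone H3, had 4466, 4873, 4331 and 5025 counts (NCBI gene 99982, chr4:136550533-136602787). Its hypoxic libraries lay above the normoxic ones by a log2 change of 0.17 (SE 0.0594, edgeR's adjusted p = 0.0296), the smallest change among the genes that passed. It was called in 3 of 6 alternative fits, with adjusted p-values up to 0.252. The difference between Kdm1a and the oxygen-dependent genes was not tested, since genes are not replicates.

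**Figure D2:**
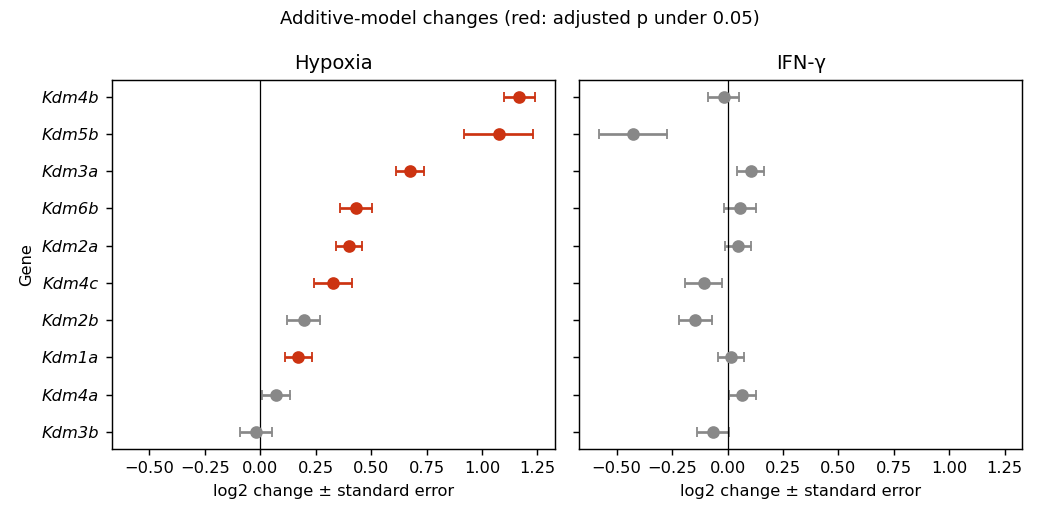
Log2 change of each demethylase mRNA with hypoxia (left) and with IFN-γ (right) in the additive model, with bars of 1 standard error and red points for an adjusted p under 0.05 in edgeR's quasi-likelihood test. In hypoxia 7 genes are red, from Kdm1a at 0.17 to Kdm4b at 1.17, and with IFN-γ no gene is red.

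Promoter sequences were examined for the letters bound by the hypoxia-inducible factors. These factors recognise hypoxia response elements with the core ACGTG or GCGTG. RefSeq start sites (GRCm38.p6) gave windows, 250 bases before to 50 bases after a start, for 6 of the 10 genes, and not for Kdm2a, Kdm3b, Kdm4b and Kdm6b. On either strand the core was found in the first window of 4 of the 6, Kdm1a, Kdm2b, Kdm3a and Kdm5b, where 43.8% of 32851 windows of the same length hold it. The window of Kdm5b, which rose in hypoxia, is shown up to the first exon beside that of Kdm4a, which did not pass the test. These windows are examples only. Kdm2b held the core and did not pass, while Kdm4c passed and held none in its first window. Whether matches go with the hypoxia change was not tested. Short sites from Kdm3a and Kdm4c, where the letters fall within an annotated exon, follow, and capitals mark the core, which reads CACGT or CACGC where it lies on the other strand.
Kdm5b, chr1:134559928-134560170, plus strand: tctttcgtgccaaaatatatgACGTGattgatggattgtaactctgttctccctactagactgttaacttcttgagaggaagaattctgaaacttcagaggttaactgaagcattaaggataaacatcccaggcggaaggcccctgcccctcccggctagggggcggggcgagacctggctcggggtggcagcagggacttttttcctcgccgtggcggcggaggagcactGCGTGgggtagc
Kdm4a, chr4:118180091-118180293, minus strand: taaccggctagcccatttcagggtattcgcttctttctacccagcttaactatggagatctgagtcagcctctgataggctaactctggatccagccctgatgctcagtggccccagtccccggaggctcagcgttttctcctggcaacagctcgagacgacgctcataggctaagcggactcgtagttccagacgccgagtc
Kdm3a, chr6:71632930-71632954, minus strand: gggaggctgtGCGTGtcttgtgaga
Kdm4c, second start, chr4:74251827-74251851, plus strand: ACGTGggggcGCGTGcgccaCACGC
In Kdm5b the letters ACGTG stood near the far end of the window and GCGTG close to the annotated start, and the single match of Kdm3a was also close to its start. The window at the second start of Kdm4c held 6 matches, counting the palindrome CACGTG on both strands, and the window at its first start held none. Kdm4a had no match in its window. The letters TTCNNNGAA, the gamma-activated site of interferon-induced genes, were in no first window of the 6 genes and in 8.3% of all windows. Of the later windows, only that at the third start of Kdm3a held these letters, with 1 match. A match of letters is a description of the window and not a measured binding site.

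With IFN-γ, no mRNA of the 10 passed edgeR's quasi-likelihood test, after Benjamini-Hochberg adjustment, in either direction, where 4.76% of all genes tested rose and 1.1% fell. Unadjusted p-values under 0.05 in edgeR's test were found for 2 of the 10, Kdm5b and Kdm2b. The share of all genes under that unadjusted threshold was not counted, so this count cannot be set against a background. The 6 alternative fits, DESeq2's Wald test among them, called none of the 10. Kdm5b came nearest, with a log2 change of -0.43 (SE 0.154, edgeR's adjusted p = 0.0854). The log2 change was -0.15 (SE 0.0745) for Kdm2b. For the other 8 genes it lay between -0.11 for Kdm4c and 0.10 for Kdm3a. Both IFN-γ libraries lay below both control libraries for 1 gene, Kdm3b, where 15.1% of all genes did so, and above them for none, where 15.3% did so.

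Single pairs of libraries were compared next, as log2 ratios with exact 95% intervals that cover counting error only. Without IFN-γ, 8 of the 10 genes were higher in the hypoxic library beyond counting error, and with IFN-γ 9 of 10. The share of all genes that did so was not counted, so these counts cannot be set against a background. The median log2 ratio of the 10 genes was 0.28 without IFN-γ, against 0.01 over all genes tested. With IFN-γ it was 0.40 against 0.00. For Kdm4b the log2 ratio was 1.10 (1.01 to 1.19) without IFN-γ and 1.23 (1.14 to 1.33) with it. For Kdm3a it was 0.71 (0.64 to 0.78) without and 0.64 (0.58 to 0.71) with IFN-γ. For Kdm5b the intervals were wide, 0.97 (0.70 to 1.25) and 1.19 (0.87 to 1.52), because of its low counts.

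Kdm6b had the largest gap between the 2 ratios among the 10. Its hypoxia ratio was 0.25 (0.15 to 0.34) without IFN-γ and 0.62 (0.52 to 0.72) with it. Read the other way, the IFN-γ ratio of Kdm6b was -0.14 (-0.24 to -0.03) in normoxia and 0.24 (0.15 to 0.33) in hypoxia. The difference of the hypoxia ratios, with minus without IFN-γ, was 0.37 (0.24 to 0.51). Differences outside counting error were found for 4 of the 10 genes, Kdm1a, Kdm2a, Kdm4b and Kdm6b, and for 34.5% of the 10443 genes that reached 100 counts in each library. The central 95% of those genes ran from -0.36 to 0.40, and none of the 10 lay outside it.

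**Figure D3:**
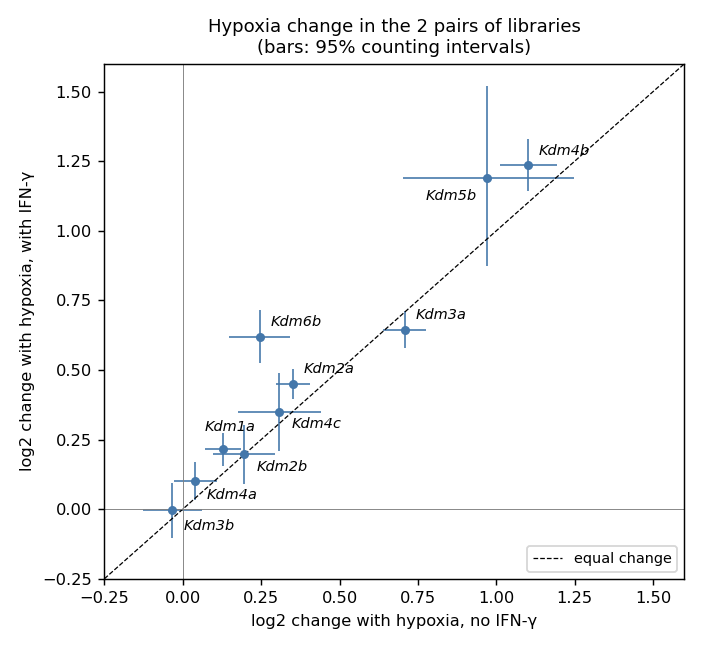
Log2 ratio of hypoxic to normoxic library for each demethylase without IFN-γ (horizontal axis) and with IFN-γ (vertical axis), with bars for 95% counting intervals and a dashed line of equal change. Kdm6b lies farthest above the line, at 0.25 and 0.62, and Kdm3a is the only gene below it, at 0.71 and 0.64.

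Levels per length were compared between genes as mean CPM per kilobase of transcript over the 4 libraries. Kdm1a was the most abundant of the 10 at 44.8, followed by Kdm3a at 22.6, Kdm4a at 22.2, Kdm2a at 18.7 and Kdm4b at 14.2. Below these were Kdm2b at 8.71, Kdm3b at 7.97, Kdm6b at 7.84, Kdm4c at 6.21 and Kdm5b at 0.741. The ranges over the 4 libraries overlapped between neighbours in this order except between Kdm1a and Kdm3a and between Kdm4c and Kdm5b, but these ranges include the change with oxygen, and Kdm4a was above Kdm2a in each of the 4 libraries. The order also differed by oxygen level. In control normoxia Kdm3a, at 16.6, was below Kdm4a, at 21.3, and in control hypoxia it was above it, at 27.1 against 22.0. Kdm4b, at 8.995, was close to Kdm2b, at 8.53, in control normoxia and above it in control hypoxia, at 19.3 against 9.77. With coding length in place of transcript length, Kdm2a moved above Kdm3a and Kdm4a, Kdm4a moved above Kdm3a, and Kdm6b moved above Kdm3b. Summed over the 9 oxygen-dependent genes the level was 93.1 CPM per kilobase in control normoxia, 123.3 in control hypoxia, 92.2 with IFN-γ in normoxia and 127.8 with IFN-γ in hypoxia. Kdm4b made up 9.66% of that sum in control normoxia and 15.7% in control hypoxia, while Kdm4a made up 22.9% and 17.8%.

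The other 12 histone demethylase genes did not share one direction. Of the 9 that could be tested, 3 rose in hypoxia and 2 fell, with a median log2 change of 0.05. Among all genes tested, 8.21% rose and 6.83% fell. The 3 that rose were Kdm7a (0.42), Kdm5c (0.23) and Kdm5a (0.18), and the 2 that fell were Kdm8 (-0.38, edgeR's adjusted p = 5.95e-05) and the flavin-dependent Kdm1b (-0.24, edgeR's adjusted p = 0.0102). Of the 6 alternative fits, 5 called Kdm5c, 4 called each of Kdm7a, Kdm8 and Kdm1b, and 2 called Kdm5a, whose adjusted p reached 0.323. Kdm5c, the H3K4 demethylase encoded on the X chromosome, was the second most abundant of all 22 demethylase genes at 37.5 CPM per kilobase. Kdm4d, Kdm5d and Uty had 0 counts in all libraries. Of the 11 other Jumonji-domain genes, 3 rose, Hr (0.66), Jmjd6 (0.53) and Jarid2 (0.38), and Riox1 fell (-0.31). Jarid2 is a catalytically inactive partner of the Polycomb complex that methylates H3K27. All 6 alternative fits called Jmjd6, 5 called Hr, and 4 called each of Jarid2 and Riox1.

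Methyltransferases for the same lysines were examined next. None of the 8 H3K4 enzymes passed edgeR's test in hypoxia. None of the 4 genes listed for H3K27 passed, namely the enzymes Ezh1 and Ezh2 and their non-catalytic partners Eed and Suz12. Of the 6 H3K9 enzymes 1 fell, Suv39h1 (-0.18), called in 3 of 6 alternative fits. Of the 6 H3K36 enzymes 1 fell, Nsd1 (-0.45), called in 4 of 6. The fall of Nsd1 was as large as the rises of Kdm6b and Kdm2a. Of 19 partner proteins of the demethylase complexes, 2 rose, Rcor2 (0.65, edgeR's adjusted p = 2.87e-25, called in 5 of 6 alternative fits), a corepressor that binds Kdm1a, and Phf21a (0.21), another subunit of that complex. Phf21a passed in no alternative fit. Over all genes tested, 8.21% rose in hypoxia and 6.83% fell.

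Of 25 other 2-oxoglutarate dioxygenases tested, 10 rose in hypoxia and 2 fell, where 8.21% of all genes tested rose and 6.83% fell. The largest rises among those with a mean of at least 50 counts were those of the HIF prolyl hydroxylase Egln1 (1.38), the collagen prolyl hydroxylase P4ha2 (1.35), the HIF prolyl hydroxylase Egln3 (1.17) and the collagen lysyl hydroxylase Plod2 (0.92), all of them called in all 6 alternative fits. Of 21 genes of 2-oxoglutarate and succinate metabolism, Idh1 rose (0.20, called in 3 of 6 alternative fits), while Idh3b (-0.16) and Got1 (-0.16) fell in the main fit and were each called in 1 of 6 alternative fits, with adjusted p-values up to 0.319 and 0.297. With IFN-γ, Setd1b, an H3K4 methyltransferase, was raised (0.25, called in no alternative fit) and Hr was lowered (-0.37, called in 2 of 6 alternative fits).

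**Figure D4:**
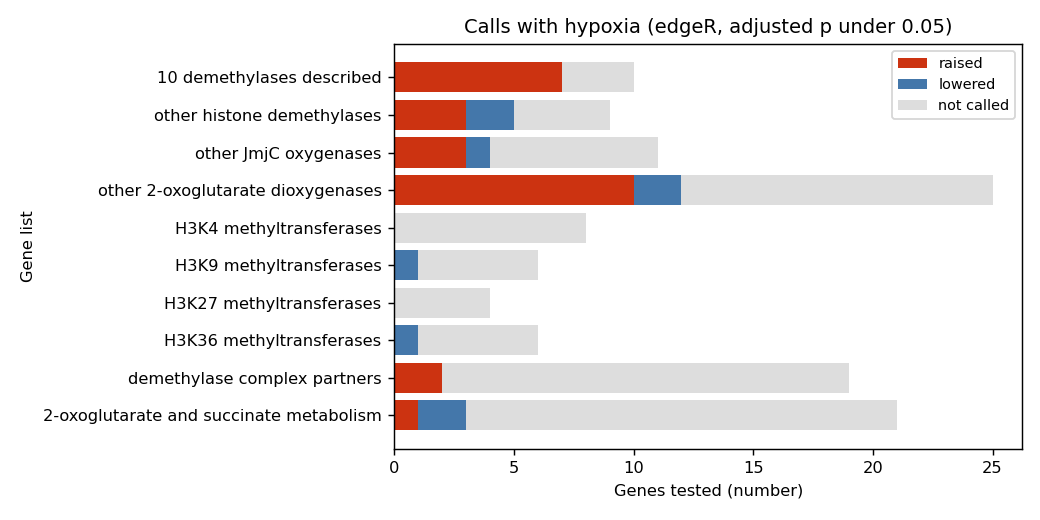
Number of genes raised, lowered or not called with hypoxia (edgeR's quasi-likelihood test, adjusted p under 0.05) in the 10 demethylases and in each related list, as stacked bars of the genes tested. The bar of the 10 demethylases holds 7 raised genes, and those of the H3K4, H3K9, H3K27 and H3K36 methyltransferases hold none. The H3K27 bar also counts Eed and Suz12, which are non-catalytic partners.

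Across the 4 libraries, the 5 genes whose centred log2 CPM lay nearest to those of Kdm4b, out of 10442 genes that reached 100 counts in each library, were Gys1 (Euclidean distance 0.0442), Mgarp, Egln3, Apln and Arhgap29 (0.0704). Gys1, the glycogen synthase of muscle and many other tissues, had 3934, 8408, 3546 and 8339 counts in control normoxia, control hypoxia, IFN-γ normoxia and IFN-γ hypoxia. Egln3 had 1059, 2344, 999 and 2269 counts. The likeness rests on 4 libraries and is a description.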

How the data were processed

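RNA-seq libraries from MC38 cells were prepared from poly-A RNA with strand-specific chemistry and sequenced on a DNBSEQ instrument, and HISAT2 was the aligner. The authors deposited raw counts per NCBI gene ID for all 4 libraries in 1 table. The submitters' processing notes name featureCounts and mm10, and the annotation, strand and multi-mapping settings are not given in the sources used here. Symbols and loci came from RefSeq (GRCm38.p6, 25275 of 27179 IDs matched), lengths and exons from GENCODE.

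Counts were tested with edgeR 4.0.16 in R 4.3.3 (quasi-likelihood, TMM, default expression filter, additive model of IFN-γ and oxygen, Benjamini-Hochberg adjusted p under 0.05, 1 residual degree of freedom per gene). The spread mixes differences between cultures with any interaction of the stimuli. Scripts were tested on simulated data. Single pairs were log2 ratios of TMM-scaled counts with 0.5 added, with Clopper-Pearson intervals. DESeq2 1.42.0 was an alternative. The members and lists were chosen with earlier results of these data known. Related genes were named where they passed the test and had a mean of at least 50 counts, at most 4 per list and stimulus by size of change, and likewise the 5 genes nearest to the member with the largest hypoxia change. Results for some items withheld for evaluation are not reported here.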

Additional observations from a re-analysis of the deposited data

Results flagged for a closer look

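Kdm6b was picked out because its IFN-γ change had opposite signs at the 2 oxygen levels, beyond counting error in both. It had 1608 counts in control cells and 1450 with IFN-γ under normoxic conditions, against 1903 and 2226 under hypoxic conditions. The difference between the changes was 0.37 on the log2 scale (95% counting interval 0.24 to 0.51). With 1 library per condition the difference was not tested, and 34.5% of genes that reached 100 counts in each library had a difference outside counting error. The central 95% of the differences over all genes that reached 100 counts ran from -0.36 to 0.40, and Kdm6b lay inside it. The share of genes with opposite signs beyond counting error was not counted.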

How the results depend on the processing

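Each condition had 1 library, so leaving out a library left no residual degrees of freedom and single pairs of libraries stood in for that check. No pairing of replicate cultures was possible because each condition had 1 library. The additive model adjusted the change with each stimulus for the other stimulus. No hypoxia change of the 10 demethylases turned its direction under the alternatives. The IFN-γ change of Kdm6b, 0.06 in the additive model, was -0.14 in the normoxic pair. Those of Kdm1a, Kdm2a and Kdm4b, none of them called and all near 0, changed sign in a single pair. The sign also changed for Kdm1a with total counts in place of TMM (-0.0026) and for Kdm4b without the other stimulus (0.0024). Without the other stimulus in the model, 3 of the 10 demethylases were raised by hypoxia (7 in the additive model), Kdm2a, Kdm3a and Kdm4b. Over all genes, hypoxia raised 1115 and lowered 927, against 726 and 546 at an adjusted p under 0.01, 360 and 203 with DESeq2, and 150 and 26 without the other stimulus. IFN-γ raised 647 genes, against 353 with DESeq2 and 239 without the other stimulus. It lowered 149, against 70 at an adjusted p under 0.01, 99 with DESeq2 size factors, 16 with DESeq2, 71 with no filter, 74 with at least 10 counts in every library and 3 without the other stimulus. Over the related genes, hypoxia raised 19, against 12 with DESeq2 and 7 without the other stimulus, and lowered 9, against 5 at an adjusted p under 0.01 and 0 with DESeq2 and without the other stimulus. The 1 related gene raised by IFN-γ became 0 under all 7 alternatives, and the 2 lowered became 1 at an adjusted p under 0.01, with no filter and with at least 10 counts in every library, and 0 with DESeq2 and without the other stimulus. The main fit had an infinite prior, while the other edgeR fits had 3.52 to 23.2 prior degrees of freedom, and how much of the lower counts this accounts for was not tested.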
